A study of Arabidopsis thaliana with 6 samples.

Results

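The copper-deficiency genes examined here were 8 loci chosen by identifier, namely FSD1 (AT4G25100), COPT2 (AT3G46900), MIR408 (AT2G47015), FRO4 (AT5G23980), FRO5 (AT5G23990), CCH (AT3G56240), ZIP2 (AT5G59520) and YSL2 (AT5G24380). They were looked up in the authors' deposited table, which compares roots of Arabidopsis thaliana between the wild type, called Col, and an hb13 mutant and lists 708 entries. Of the 8, 6 were listed, each as an entry of its own, and CCH and YSL2 were not listed. The loci were picked with their values in this table known, so their direction and the size of their changes describe the table and were not tested. The table gives 1 expression value per gene for each genotype, where the labels give 3 libraries of each, with the authors' log2 fold change and q-value, and the read depth is unknown. Both genotypes are in the Col-0 ecotype, the common laboratory accession, and roots were taken at 5 days on standard medium, from tissue cut about 0.5 cm from the tip although the tissue label reads whole root. The mutant is labelled hb13, for a homeodomain-leucine zipper class I transcription factor, and the labels do not give its allele. HB13 itself is not among the listed entries, so its transcript does not check the genotype labels here.

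Plants that run short of copper take up more of it and spend less of it. The transcription factor SPL7 binds promoters at sites with the core GTAC and turns on root reductases that convert cupric to cuprous ions, COPT transporters that carry the reduced ion into cells, and a small set of microRNAs that lower transcripts of dispensable copper proteins such as laccases and plantacyanin. At the same time the iron superoxide dismutase FSD1 takes over from the copper/zinc enzymes. These genes are used as molecular signs of low copper in this species.

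The microRNA gene MIR408 had the largest fold change of the 6 listed genes, so its products are shown first. Sequences are RefSeq's, of assembly TAIR10.1, where the gene lies at chr2:19319814-19320031 on the plus strand as a single-exon precursor of 218 bases. Both mature arms are given 5′ to 3′ with the seed, bases 2 to 8, in capitals, and in the precursor the capitals mark the arms themselves.
miR408-5p: aCAGGGAAcaagcagagcaug
miR408-3p: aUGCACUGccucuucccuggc
MIR408 precursor: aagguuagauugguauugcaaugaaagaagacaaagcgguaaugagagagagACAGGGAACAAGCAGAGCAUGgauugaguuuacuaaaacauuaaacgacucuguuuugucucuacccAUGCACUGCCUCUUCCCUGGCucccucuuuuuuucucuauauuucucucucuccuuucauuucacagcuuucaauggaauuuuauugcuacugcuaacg

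The expression value of MIR408 in the authors' deposited table was 2.09 in Col and 10.2 in hb13, a ratio of 4.87 and log2(hb13/Col) of 2.28 at q = 0.00246. By log2 fold change MIR408 held rank 6 of the 394 entries that were higher in hb13. The libraries were made from polyadenylated RNA, so the value concerns the polyadenylated transcript of the locus and not the 21-base mature arms. The precursor is short against the 100-base reads, with 119 distinct 100-base stretches, and none of them occurred elsewhere in the nuclear genome.

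A second listed gene covers the same bases. AT2G47020, annotated as a peptide chain release factor and picked out here after its values were seen, runs on the opposite strand at chr2:19319685-19322507, and the last exon of 1 of its 5 annotated transcripts spans all 218 bases of the MIR408 precursor, outside its coding sequence. In the authors' deposited table AT2G47020 moved the other way, from 7.75 in Col to 3.78 in hb13, log2(hb13/Col) of -1.04 at q = 0.00975. The shared bases make up 10.8% of the annotated exon bases of AT2G47020. The libraries keep strand, but whether the counting used it is not given in the sources used here, so the part of reads from one gene in the value of the other was not tested.

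FSD1, COPT2, FRO4, FRO5 and ZIP2 were also higher in hb13, so all 6 listed genes had the same direction, beside 55.6% of all listed entries (394 of 708). Since the genes were chosen from this contrast, nothing is read from that count. Of the 6, 5 shared the smallest q-value of the table, 0.00246, which 342 of the 708 entries held in either direction. Entries that were higher at that q-value made up 25.7% of listed entries, or 182 of the 394 higher ones. The same 5 were higher at a q-value under 0.01, as were 33.6% of listed entries, or 238 of the 394 higher ones. A log2 fold change of at least 1 was reached by 3 of the 6 and by 12.4% of listed entries, or 88 of the 394 higher ones. Nothing is read from these counts either, for the same reason. ZIP2 was the gene with the larger q-value. Only 5 entries of the table had a larger q-value than ZIP2.

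FSD1 encodes the iron superoxide dismutase that replaces copper/zinc superoxide dismutase when copper is scarce. Its expression value in the authors' deposited table was 62.7 in Col and 149.8 in hb13, a ratio of 2.39 and log2(hb13/Col) of 1.26. It held rank 47 of the 394 higher entries. No other superoxide dismutase of the 7 on the copper list was listed, including CSD1 and CSD2, the copper/zinc enzymes whose transcripts miR398 lowers.

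COPT2 encodes a plasma-membrane importer of cuprous ions. The authors' deposited table gave it 15.9 in Col and 34.9 in hb13, a ratio of 2.19 and log2(hb13/Col) of 1.13, at rank 58. Its coding sequence of 477 bases is closest to those of COPT6, at 80.8% of aligned positions, and COPT1, at 79.0%, and shares no 100-base stretch with any COPT gene. Of the 6 COPT genes, 2 were listed and both were higher, the other being COPT5, which moves copper out of the vacuole. Over all RefSeq loci 1.85% were listed, and 55.6% of listed entries were higher. Because COPT2 was chosen with its values known, nothing is read from that count. COPT5 had 237.3 in Col and 319.0 in hb13 in the authors' deposited table, log2(hb13/Col) of 0.43 at q = 0.0255.

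FRO4 and FRO5 encode reductases that act on cupric ions at the root surface. In the authors' deposited table FRO4 had 10.5 in Col and 20.8 in hb13, a ratio of 1.99 and log2(hb13/Col) of 0.99. For FRO5 the authors' deposited table gave 19.1 in Col and 30.7 in hb13, a ratio of 1.60 and log2(hb13/Col) of 0.68. Both rose at the same q-value, with FRO4 at rank 91 and FRO5 at rank 198 of the higher entries.

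The FRO4 and FRO5 genes are neighbours on the minus strand of chromosome 5, at chr5:8097978-8101330 and chr5:8105461-8108642, with 4130 bases and no annotated gene between them. None of the 5 annotated genes on either side of the pair was listed. Their coding sequences are both 2100 bases long and were identical at 1945 positions (92.6%), whereas FRO4 shared at most 65.1% of aligned positions with any other FRO gene. No 100-base stretch of coding sequence was common to both. At 275 of the 2001 aligned 100-base windows they differed at 2 positions or fewer, and the median window differed at 8. How the authors' processing placed reads that fit both genes is not given in the sources used here, so the split of the signal between FRO4 and FRO5 is uncertain.

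FRO2, which reduces ferric iron at the root surface, went the other way within the same family. Its value in the authors' deposited table was 15.3 in Col and 8.14 in hb13, log2(hb13/Col) of -0.91 at q = 0.00246. FRO2 belongs to the iron-uptake genes and is not one of the copper-deficiency genes examined here. It is counted among the metal reductases of the wider copper list below.

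ZIP2 encodes a metal-ion transporter of the ZRT/IRT-like family whose transcript responds to copper. It had the smallest change of the 6, from 162.9 in Col to 212.7 in hb13 in the authors' deposited table, a ratio of 1.31 and log2(hb13/Col) of 0.38 at q = 0.0491. It stood at rank 392 of 394. The 6 values therefore span from close to the smallest listed change, 0.37, to one of the largest. Their median log2 fold change was 1.06, against 0.68 over all higher entries of the authors' deposited table. Since the 6 were chosen with their values known, nothing is read from that difference. The distance between neighbours in this order cannot be set against replicate spread, because single libraries have no values in the table. For the same reason no gene is named for a likeness of pattern, since 1 contrast gives each gene a single number.

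**Figure D1:**
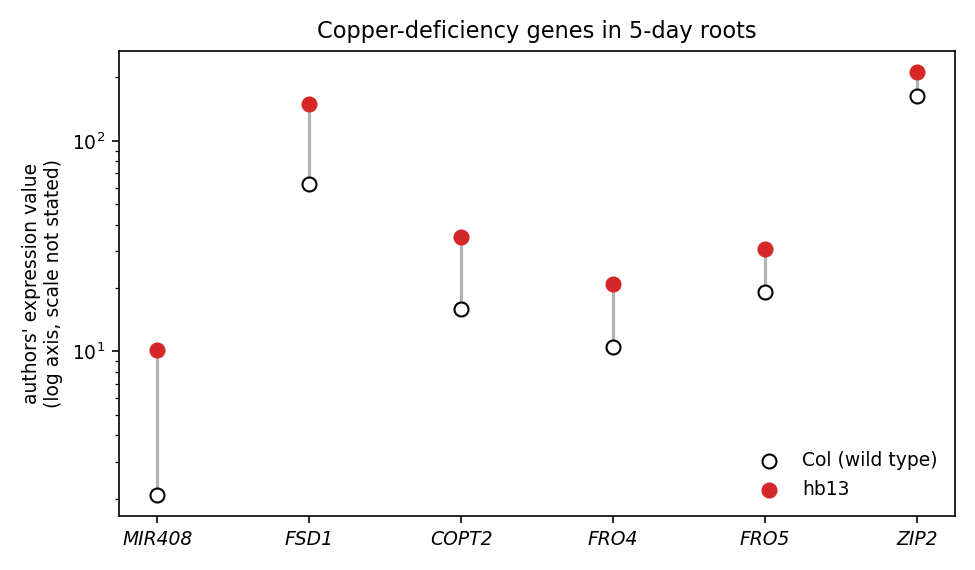
Expression values of the 6 listed copper-deficiency genes in the authors' deposited table (log axis, scale not stated), with Col as open circles and hb13 as red circles, ordered by fold change. The hb13 value lies above the Col value for each gene, by a ratio of 4.87 for MIR408 and 1.31 for ZIP2; each circle is 1 deposited value with no error.

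**Figure D2:**
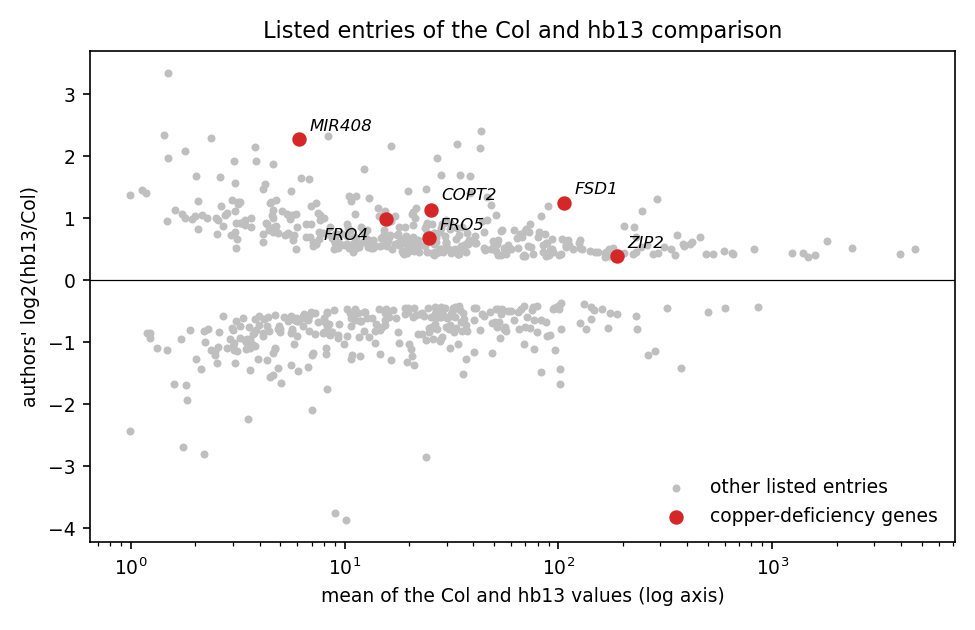
The authors' log2(hb13/Col) of the 706 listed entries with a fold change against the mean of both genotype values (log axis), with the 6 copper-deficiency genes in red and all others in grey. MIR408 at 2.28 lies near the top of the higher entries and ZIP2 at 0.38 at their lower edge; entries near 0 are missing because the table holds only those that passed the authors' q-value.

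CCH, a copper chaperone of the cytosol, and YSL2, a transporter of metal-nicotianamine chelates, have no value. A gene that is not listed may have changed too little, may not have been tested or may have had too few reads, and these cases cannot be told apart. Fewer cells of a type and less RNA per cell cannot be told apart in whole-tissue RNA either. None of 13 markers of root cell types or green tissue was listed. The 13 are a small choice, and other genes of these cell types were not counted. One such gene, the root hair regulator ZFP5 (AT1G10480), was picked out after its values were seen. It was higher in the authors' deposited table, log2(hb13/Col) of 1.55 at q = 0.00246. Whether cell types changed in number was not tested.

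The wider copper pathway was then read by role from a list of 54 genes that includes the 8 and was written with earlier results of these data known. Of the 54, 9 (16.7%) were listed, 8 higher and 1 lower in hb13, where 1.85% of the 38095 RefSeq loci were listed. Most of that count comes from the genes picked with their values known. Of the 46 others, 3 (6.52%) were listed, namely COPT5 and LAC7, which were higher, and FRO2, which was lower. The RefSeq loci include genes without root transcripts, so the shares have different bases.

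The regulators and most targets gave no entry. Neither SPL7 nor CITF1, a basic helix-loop-helix factor of the copper response, was listed, nor was any of the 3 copper chaperones or the 2 plastocyanins. Among 7 microRNA genes of the copper response, MIR408 was the single one listed, and the others were the MIR397, MIR398 and MIR857 genes. LAC7, a laccase whose transcript is a target of miR857, had 26.7 in Col and 36.3 in hb13 in the authors' deposited table, log2(hb13/Col) of 0.44 at q = 0.0362. It was the single listed gene of 6 further microRNA targets. The plot of the list by role shows these counts.

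**Figure D3:**
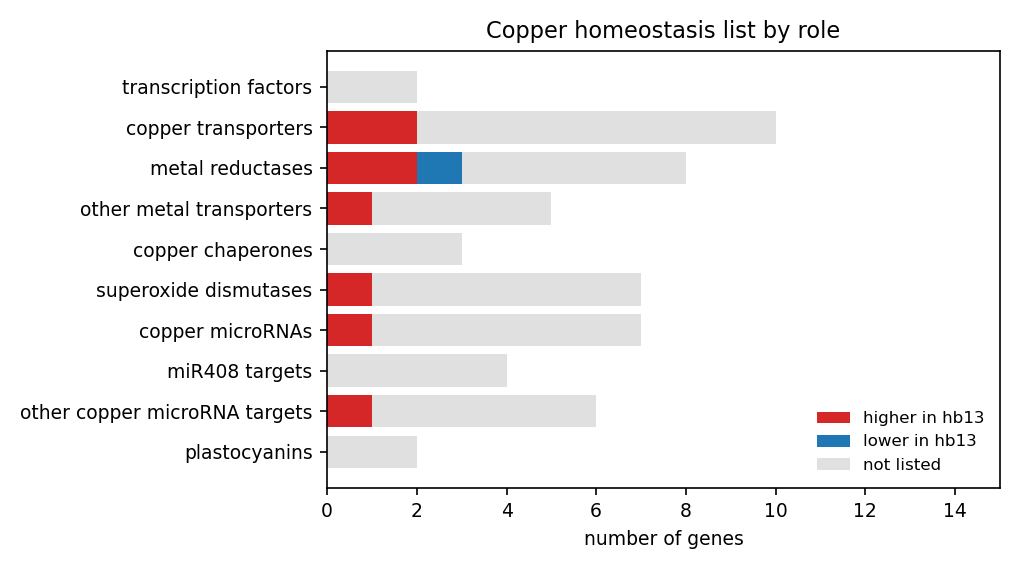
Number of genes on the copper homeostasis list in each role, split into those higher in hb13 (red), lower in hb13 (blue) and not listed (grey). Copper transporters had 2 of 10 listed and metal reductases 3 of 8, of which FRO2 was the lower one, while transcription factors, chaperones, miR408 targets and plastocyanins had none.

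The transcripts that miR408-3p is known to target were looked at next. None of the 4, the plantacyanin gene ARPN and the laccase genes LAC3, LAC12 and LAC13, was listed in either direction. Their best-matching stretches are shown 5′ to 3′ as RNA, with each base that does not form a Watson-Crick pair with miR408-3p in capitals.
ARPN: CcAagggaagaggcagugcau
LAC3: AccagUgaagaggcUgugcaG
LAC12: gccGgUgaagaggcUgugcaA
LAC13: gccGgUgaagaggcUgugcaG

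ARPN, on the minus strand at chr2:827696-827716 within its coding sequence, paired at 19 of 21 bases. The LAC3 site at chr2:12889603-12889623 (minus strand), the LAC12 site at chr5:1594966-1594986 and the LAC13 site at chr5:2210756-2210776 (both plus strand) paired at 17 each. The LAC3 and LAC12 sites were coding, and the LAC13 site was not wholly so in the longest annotated transcript. On a scale that adds 1 for a mismatch and 0.5 for a G:U wobble, weighted by 2 at miRNA bases 2 to 13, ARPN scored 2 and the laccases 4.5 to 5. Across 27440 protein-coding transcripts, 1 for each gene, 2 genes had a score of at most 4. These were ARPN and AT2G47020, whose full match of 21 bases is the strand opposite MIR408 itself. No listed gene other than AT2G47020 scored at most 4. Of the 4 known targets only ARPN passed that cutoff, so a listed gene with a site like those of the laccases would be missed.

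The promoters of the listed genes were searched for GTAC, the core of the SPL7 binding site, which reads the same on both strands. In the window from 250 bases before to 50 after the most upstream annotated transcript start, MIR408, COPT2 and ZIP2 held 4 copies each and FSD1 held 1, while FRO4 and FRO5 held none. At least 1 copy is common, at 39.0% of 27769 promoters of protein-coding and microRNA genes. At least 4 copies occurred in 117 promoters (0.421%). CCH, which is not listed, also had 4, and YSL2 had 3. The 250 bases before the start are printed for the 4 listed genes with a copy, with GTAC in capitals; the remaining copy of ZIP2 lies past this stretch.
MIR408: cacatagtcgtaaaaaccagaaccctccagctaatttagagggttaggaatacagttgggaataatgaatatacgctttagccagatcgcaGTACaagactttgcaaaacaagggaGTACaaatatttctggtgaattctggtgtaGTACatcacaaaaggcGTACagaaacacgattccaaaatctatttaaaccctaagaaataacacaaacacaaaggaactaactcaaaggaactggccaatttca
COPT2: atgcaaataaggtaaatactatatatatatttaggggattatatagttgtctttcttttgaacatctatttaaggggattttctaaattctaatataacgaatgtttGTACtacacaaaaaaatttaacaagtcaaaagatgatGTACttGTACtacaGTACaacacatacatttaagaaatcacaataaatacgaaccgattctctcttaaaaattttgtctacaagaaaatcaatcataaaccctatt
ZIP2: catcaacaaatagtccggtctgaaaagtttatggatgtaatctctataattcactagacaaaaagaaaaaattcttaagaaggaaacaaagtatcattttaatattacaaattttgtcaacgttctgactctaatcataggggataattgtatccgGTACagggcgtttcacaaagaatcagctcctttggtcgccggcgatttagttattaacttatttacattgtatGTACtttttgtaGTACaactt
FSD1: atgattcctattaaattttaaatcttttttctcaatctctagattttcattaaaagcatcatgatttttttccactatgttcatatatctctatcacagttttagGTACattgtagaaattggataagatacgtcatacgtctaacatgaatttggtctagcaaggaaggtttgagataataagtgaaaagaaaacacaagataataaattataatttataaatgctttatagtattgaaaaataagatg

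These stretches lie at chr2:19319564-19319813 for MIR408 and chr3:17268625-17268874 for COPT2, both on the plus strand, and at chr5:23992909-23993158 for ZIP2 and chr4:12887012-12887261 for FSD1, both on the minus strand. Counting back from the start, 3 of the COPT2 copies began close together, at positions -106, -100 and -92. The start used is that of the single annotated COPT2 transcript. The annotated COPT2 gene begins 175 bases further upstream, so all 4 copies lie inside it, and the same window set from the gene's start held 1. No other of the 8 genes had its transcript start apart from its gene start. The copies of MIR408 began at -159, -134, -104 and -88 from the annotated precursor, whose start need not be where transcription begins. The 129 bases of that stretch nearest the precursor lie opposite the end of AT2G47020. For FSD1 the count depended on which of its annotated starts was used. The 250 bases before the start 109 bases further downstream held no copy, and those before the starts 271, 303 and 316 bases downstream held 4, 5 and 5.

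**Figure D4:**
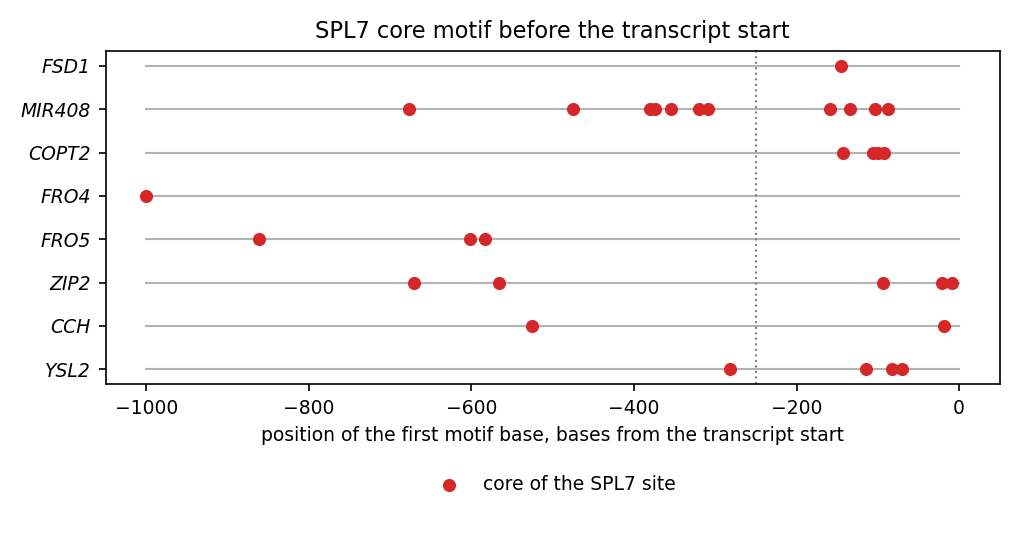
Position of each GTAC core in the 1000 bases before the most upstream annotated transcript start of the 8 copper-deficiency genes (x axis in bases from the start, 1 red point per copy), with a dotted line at 250 bases. MIR408 has 11 copies, 4 of them within 250 bases of the start, and COPT2 has 4, all within 250 bases of its transcript start but inside the annotated gene, while the nearest copy of FRO5 begins at -583.

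Over 1000 bases before the start all 6 listed genes had at least 1 copy, as did 82.3% of promoters, and MIR408 had 11, a number reached by 0.072% of them. Among all 693 listed genes with a promoter of this kind, 6 (0.866%) held 4 or more copies in the shorter window set from the transcript start, and among the 379 that were higher 5 did (1.32%). They include MIR408, COPT2 and ZIP2, which were chosen with their values known, so nothing is read from these shares beside the 0.421% of all promoters. The others were AT1G76210, TBL38 and BCE2, picked out after their values were seen. In the authors' deposited table AT1G76210 had 3.01 in Col and 9.499 in hb13, log2(hb13/Col) of 1.66. TBL38, of a family that acetylates cell-wall polymers, had log2(hb13/Col) of 0.43 in the authors' deposited table. BCE2, an enzyme subunit of branched-chain amino acid breakdown, was lower, at 23.5 in Col and 9.63 in hb13, log2(hb13/Col) of -1.28 in the authors' deposited table. The pseudopalindrome CAATNATTG, which binds homeodomain-leucine zipper class I proteins, was absent from all 8 promoters in the 1000-base window. It was held by 3.44% of all promoters, 4.76% of those of listed genes and 5.8% of those of higher ones. With so few promoters holding it, nothing is read from its absence in 8. A match or its absence describes these letters in these windows and says nothing of binding.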

How the data were processed

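RNA was sequenced from roots of 3 Col and 3 hb13 samples, placed in groups by their titles, as directional polyadenylated libraries with single-end 100-base reads, per the labels. TopHat2 2.0.13, Cufflinks 2.1.1, Cuffdiff and the TAIR10 build are named in the submitters' processing notes, without their settings. The authors deposited 1 expression signal per gene and genotype on a scale that the header does not name, a log2 fold change of hb13 over Col, and a q-value, and every deposited q-value was under 0.05. Depth per library and the spread between replicates are unknown, so no test was run, and the limma fit laid out for values per library was not used.

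The members and the lists were chosen with earlier results of these data known. Named genes were the 8 members and every listed gene of the copper list, and others are said to have been picked after their values were seen. Names and sequences came from RefSeq TAIR10.1 by locus. Motif and site searches used Python 3.11.15, pandas 2.3.3 and NumPy 2.4.6, and plots matplotlib 3.10.9; the motif search was tested on simulated data. Repeated 100-base exon stretches were searched in the 5 nuclear chromosomes on both strands, with 0 found for any of the 8 members. Alternatives were stricter filters, 2 rescalings, a pseudocount of 1 and other promoter windows.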

Additional observations from a re-analysis of the deposited data

How the results depend on the processing

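No paired analysis was possible because each genotype has a single deposited value per gene, and leaving out each replicate was not run for the same reason. With a minimum absolute log2 fold change of 1, 3 of the 6 listed members remained (MIR408, FSD1 and COPT2), 3 of the members higher in hb13 and 3 of the 9 listed genes of the copper list; a smaller count follows from the filter. At a q-value under 0.01, 5 members and 6 genes of the copper list remained, and minimum mean values of 1 and 5 removed none of either. MIR408 passed the minimum of 5 only through its hb13 value of 10.2, beside 2.09 in Col, so that filter is no check on it. Dividing hb13 by the ratio of the values summed over the 708 listed entries, 1.19, lowers every log2 fold change by 0.26. All 6 members stayed higher, with ZIP2 at 0.13. That sum covers only entries that passed the authors' q-value, so it does not measure a difference in scale between whole libraries. With 1 added to both values MIR408 moved most, to log2(hb13/Col) of 1.85. The windows of 250 and, chosen after seeing the data, 1000 bases before the start gave 4 and 6 listed members with a GTAC, against 4 in the main window, and windows set from the annotated gene start, also chosen afterwards, gave 4, with COPT2 at 1 copy in place of 4. Depth is unknown, so the error of low values such as the 2.09 of MIR408 in Col is unknown too.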

Other observations

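Copper proteins outside the list were also present, picked after their values were seen. UCC3, a blue copper-binding uclacyanin, had 90.7 in Col and 134.3 in hb13 in the authors' deposited table, log2(hb13/Col) of 0.57 at q = 0.00246, and was the single listed gene of 3 with a uclacyanin symbol. LAC1, a laccase, had 23.3 in Col and 31.9 in hb13 in the authors' deposited table, log2(hb13/Col) of 0.45 at q = 0.0244. Of 15 laccase genes by RefSeq symbol, 2 were listed, LAC1 and LAC7, and both were higher in hb13. Over all RefSeq loci 1.85% were listed, and 55.6% of listed entries were higher. Because UCC3 and LAC1 were picked after their values were seen, nothing is read from these family counts.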
